A study of Homo sapiens with 18 samples.

Results

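10 genes of the transforming growth factor-beta (TGF-β) pathway were followed through the RNA sequencing of METTL3 CRISPR lines of the MCF10 breast cancer progression series. They were taken by symbol, and comprised 4 ligand genes (TGFB1, TGFB2, TGFB3 and INHBA), 3 receptor genes (TGFBR1, TGFBR2 and TGFBR3), 2 SMAD genes (SMAD3 and SMAD7) and 1 matrix target gene (TGFBI), 10 of the 35933 genes with values in every library. MCF10A is a spontaneously immortalized, non-tumorigenic line of human breast epithelium. MCF10AT1 was made from it by introducing mutated HRas, and MCF10CA1h came from MCF10AT1 by serial growth as xenografts in mice. METTL3 is the catalytic subunit of the complex that writes N6-methyladenosine (m6A) on RNA. Of each line, 3 libraries came from cells transfected with a control CRISPR construct and 3 from cells transfected with a METTL3 CRISPR construct, 18 libraries in all.

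The cells of all 6 groups had been transiently transfected with an all-in-one construct with Cas9, an mCherry marker and a guide RNA. This was a control guide in the control arm and a guide to exon 1 of METTL3 in the other arm. Whether the sequenced cells still held the construct is not stated. All were grown with horse serum, insulin, hydrocortisone, cholera toxin and epidermal growth factor, and the growth protocol names no added TGF-β. The cells of each arm were selected as a line grown out of single cells, so a difference between the arms cannot be told apart from a difference between clones. The replicates a, b and c are libraries of 1 such line, and nothing says that they came from separate cultures, so the p-values measure the spread between these libraries, which may be technical. In bulk RNA, fewer cells expressing a gene and less RNA of it per cell cannot be told apart.

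TGF-β ligands are secreted in a latent form, and once released they bind the type II receptor TGFBR2, which recruits and activates the type I receptor TGFBR1. The active receptors phosphorylate SMAD2 and SMAD3, which enter the nucleus with SMAD4 and switch genes on or off, and SMAD7 is an inhibitor that is itself induced by the signal. In breast epithelium the pathway is known for holding back proliferation in normal cells and for promoting loss of epithelial character and matrix production in transformed ones.

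METTL3 RNA followed the labels only in part. The labelled knockdown held a mean of 810 ± 261 (SD, n = 3) normalized counts of METTL3 in MCF10A against 632 ± 154 in the control (log2 fold change 0.33, limma adjusted p = 0.618), and 823 ± 75.2 against 930 ± 111 in MCF10AT1 (-0.17, adjusted p = 0.707). The difference passed the test only in MCF10CA1h, at 804 ± 52.3 against 1135 ± 132, or 70.8% of the control (adjusted p = 0.0234). The authors report less METTL3 protein by Western blot in each line, and a lesser decrease of its mRNA by real-time PCR. Since an indel in exon 1 need not lower the RNA, the RNA values here check the labels only in part. The arm is called the labelled knockdown throughout. Library sums lay between 21347352 and 31681834 normalized counts. The control libraries of MCF10AT1 were uneven. Control b had 20121 genes above 0, the fewest of all libraries, against 24648 in control a and 26330 in control c. Cell type markers changed in the labelled knockdown of MCF10AT1 and, in another way, in that of MCF10CA1h. In MCF10AT1 10 of 12 markers of basal breast epithelium fell at an adjusted p under 0.05 by limma, against 5.96% of all genes tested. KRT5 was among them (824 to 5540 normalized counts against 36863 to 48735 in the control). The other basal markers, ITGB4 and TP63, had higher means and were not called. The summed level was 60380 to 176019 against 171772 to 261738, and ITGB4 was most of the labelled knockdown sum (48088 to 167977 against 21514 to 51829). Of 14 mesenchymal markers 6 of the 11 that could be tested rose (sum 70577 to 83134 against 4126 to 5388), against 7.07% of all genes tested. Most of that sum was VIM (57647 to 70635 in the labelled knockdown). Of 4 luminal markers tested in MCF10AT1 0 were called. KRT8 lay at 9545 to 19882 against 14037 to 23432 in the control, and KRT18 at 13608 to 28075 against 18503 to 48394. The adhesion gene CDH1, an epithelial marker counted among the 12, was at 11.6 to 79.2 normalized counts in the MCF10AT1 labelled knockdown against 2105 to 6138 in its control. Fibroblast genes were mixed in this arm. THY1 (1200 to 2557 against 0.87 to 1.91), COL3A1 (385 to 1208 against 0 to 2.25) and COL6A2 (934 to 1258 against 0) were high, while COL1A2, PDGFRA and LUM had means under 10. In MCF10CA1h 7 of the 12 basal markers rose and 0 fell, against 7.91% and 4.85% of all genes tested. Their sum was 574317 to 672837 against 388025 to 400574 in the control. Of 12 mesenchymal markers tested there, 2 rose and 1 fell. The part of these shifts in the MCF10AT1 and MCF10CA1h values below was not tested. The 3 leukocyte markers in the table summed to at most 6.18 in any library.

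**Figure D1:**
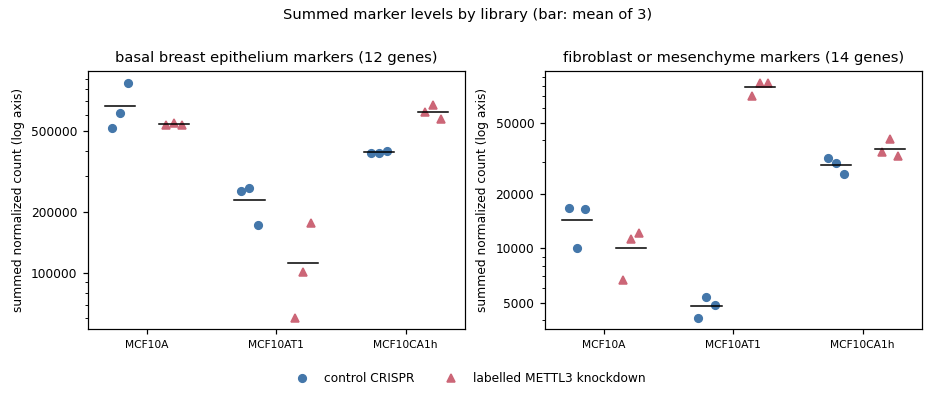
Summed normalized count of the basal breast epithelium markers (12 genes, left) and of the mesenchymal markers (14 genes, right) in each of the 18 libraries, on log axes, with circles for control, triangles for the labelled METTL3 knockdown and a bar at the mean of 3 libraries. In MCF10AT1 the labelled knockdown lay at 70577 to 83134 for the mesenchymal sum, above its control at 4126 to 5388. In that labelled knockdown ITGB4 is most of the basal sum (48088 to 167977) and VIM most of the mesenchymal sum (57647 to 70635).

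Of the 10 genes, 1 fell in the labelled knockdown of MCF10A, 2 rose and 1 fell in MCF10AT1, and 2 rose and 1 fell in MCF10CA1h, at an adjusted p under 0.05 by limma over all genes tested. Without a replicate block, no gene was called in the same direction in 2 lines. TGFBI fell in MCF10A and rose in MCF10CA1h, TGFB1 and SMAD3 rose and INHBA fell in MCF10AT1, and the receptors TGFBR2 and TGFBR1 changed in opposite directions in MCF10CA1h. In MCF10A the background over 15416 genes tested was 1.16% called higher and 1.49% called lower. In MCF10AT1 it was 7.07% and 5.96% of 16050 genes, and in MCF10CA1h 7.91% and 4.85% of 15127 genes. The groups did not overlap for 5, 6 and 5 of the 10 genes in the 3 lines in that order, against 23.9%, 32.8% and 32.7% of all genes tested. The median log2 fold change of the 10 genes took the values -0.21, 1.10 and -0.15 in MCF10A, MCF10AT1 and MCF10CA1h respectively, against medians over all genes of -0.00, 0.02 and -0.02. All 10 passed the filter on low values (a mean of at least 10) in every fit.

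Replicate letters were taken to pair the control and labelled knockdown libraries of MCF10A and MCF10AT1. The labels give no such pairing, which was inferred from same-letter correlations of 0.110 to 0.477 in these same data. With the letter as a block, 0 of the 10 genes were called higher and 3 lower in MCF10A (background 2.84% and 4.76%), and 4 higher and 1 lower in MCF10AT1 (background 13.0% and 11.6%). Under the block INHBA was called lower in both of these lines, and TGFBR2 was called higher in MCF10AT1 as well as in MCF10CA1h. The blocked adjusted p is given below beside each gene whose call it changed in these lines or in the interactions.

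**Figure D2:**
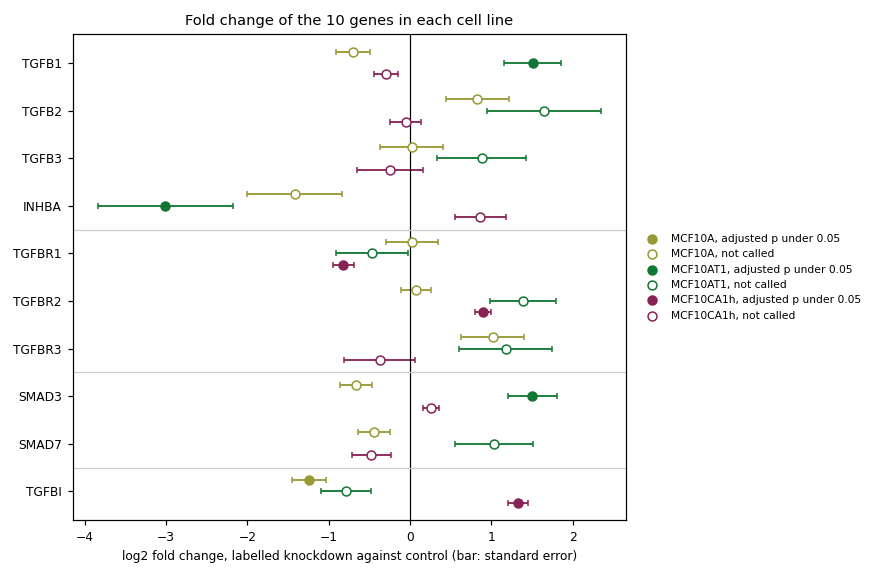
Log2 fold change of each of the 10 genes, labelled knockdown against control, in the 3 lines, with the standard error as bars, filled circles where the adjusted p was under 0.05 and open circles elsewhere. TGFBI lies at -1.24 in MCF10A and at 1.33 in MCF10CA1h, and INHBA lies lowest of all, at -3.01 in MCF10AT1.

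**Figure D3:**
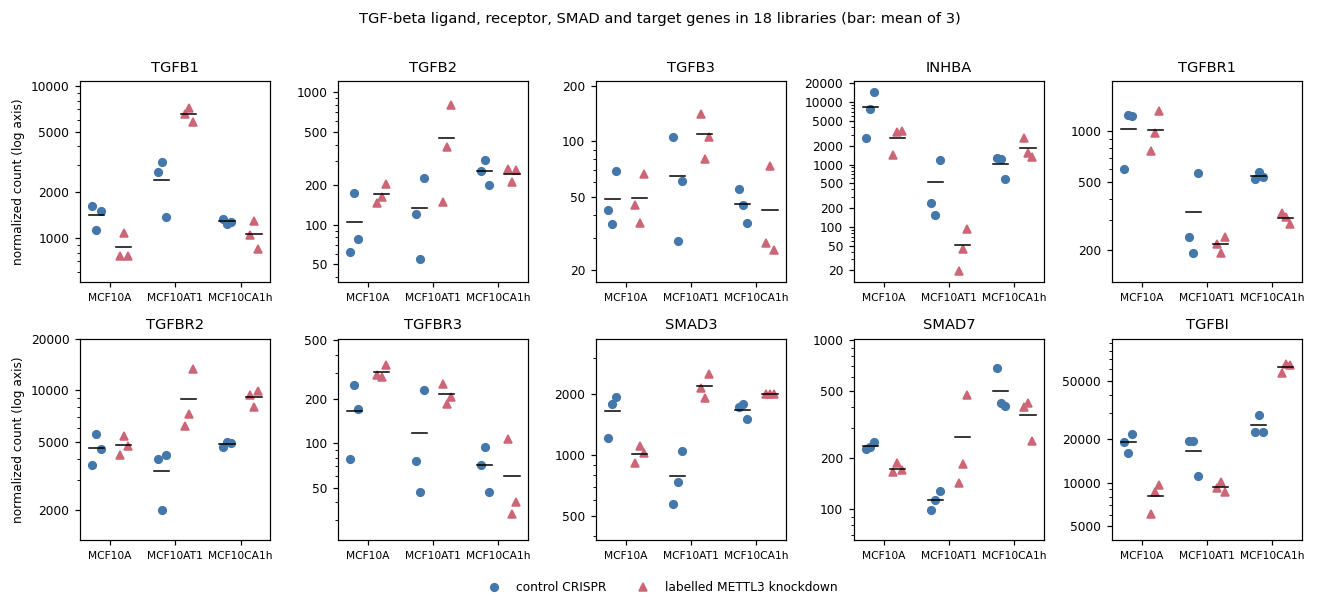
Normalized counts of the 10 genes in the 18 libraries, on log axes, with circles for control, triangles for the labelled METTL3 knockdown and a bar at the mean of 3 libraries. The labelled knockdown of MCF10AT1 is highest for TGFB1 (5812 to 7156) and lowest for INHBA (19.3 to 92.8), and that of MCF10CA1h is highest for TGFBI (55992 to 64624).

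Among the ligands, TGFB1, which encodes the most widely made TGF-β, rose in MCF10AT1. Its normalized counts were 2733, 3158 and 1362 in the control and 6553, 7156 and 5812 in the labelled knockdown libraries. The lowest labelled knockdown library was above the highest control library, and the means were 2418 ± 939 and 6507 ± 673 (log2 fold change 1.51, SE 0.35, adjusted p = 0.0255). In MCF10A the values were 1621, 1122 and 1496 in the control and 764, 1073 and 765 in the labelled knockdown. These did not overlap, in the opposite order, and did not pass the test (-0.71, SE 0.21, adjusted p = 0.122). In MCF10CA1h the control lay at 1242 to 1339 and the labelled knockdown at 848 to 1294 (-0.29, adjusted p = 0.221). The effect in MCF10AT1 exceeded that in MCF10A by 2.22 (SE 0.37, adjusted p = 0.000401), and the effect in MCF10CA1h was below that in MCF10AT1 (difference -1.81, SE 0.37, adjusted p = 0.00257).

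INHBA encodes the subunit of activin A, a relative of TGF-β that signals through its own receptors to the same SMAD2 and SMAD3. In MCF10AT1 it fell to 9.90% of the control mean. The control libraries held 246, 152 and 1178 normalized counts and the labelled knockdown libraries 19.3, 44.1 and 92.8. The groups did not overlap, but control library c was far above the other controls (means 526 ± 567 and 52.0 ± 37.4, log2 fold change -3.01, SE 0.83, adjusted p = 0.0490, which passed the threshold narrowly). Without control library c the fold change was -2.14 (adjusted p = 0.0923), and leaving out control a or labelled knockdown a or b also ended the call (0.111 to 0.154). In MCF10A the control libraries held 2715, 7818 and 14495 and the labelled knockdown libraries 1427, 3292 and 3432. The groups overlapped, while within each letter the labelled knockdown was lower (-1.42, SE 0.58, adjusted p = 0.241, and 0.00930 with the replicate block). In MCF10CA1h INHBA was at 582 to 1277 in the control and 1340 to 2672 in the labelled knockdown, which did not overlap (0.86, SE 0.31, adjusted p = 0.103). The effects in MCF10CA1h and MCF10AT1 differed by 3.87 (SE 1.03, adjusted p = 0.0145).

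TGFB2 and TGFB3, the other TGF-β ligands, passed the test in no line. TGFB2 was at 120, 54.9 and 223 in the MCF10AT1 control and 148, 387 and 802 in its labelled knockdown. Its groups overlapped, and each letter was higher in the labelled knockdown (log2 fold change 1.64, SE 0.70, adjusted p = 0.173, and 0.0198 with the replicate block). In MCF10A it lay at 62.3 to 172 against 147 to 202 (0.83, adjusted p = 0.305), and in MCF10CA1h at 200 to 307 against 207 to 260 (-0.05, adjusted p = 0.883). TGFB3 stayed between 25.7 and 141 normalized counts in all 18 libraries, with overlapping groups in every line and adjusted p between 0.340 and 0.986.

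The receptors changed in MCF10CA1h. TGFBR2, the type II receptor that binds the ligand, was at 4698, 5006 and 4897 normalized counts in the control and at 9406, 7984 and 9930 in the labelled knockdown. All labelled knockdown libraries were higher, with means of 4867 ± 156 and 9107 ± 1007 (log2 fold change 0.90, SE 0.10, adjusted p = 0.000400). TGFBR1, the type I receptor kinase, went the other way, from 521, 576 and 539 in the control to 331, 311 and 284. All labelled knockdown libraries were lower, with means of 545 ± 28.5 and 308 ± 23.3 (-0.82, SE 0.13, adjusted p = 0.00286). Both calls held without any of the 6 libraries in turn. They were lost in a joint fit of all 18 libraries, which shares the spread of the other lines (adjusted p = 0.168 for TGFBR2 and 0.389 for TGFBR1).

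In MCF10AT1 TGFBR2 was at 3992, 2007 and 4184 in the control and 6196, 7281 and 13394 in the labelled knockdown libraries. The groups did not overlap, and the difference passed only with the replicate block (log2 fold change 1.39, SE 0.41, adjusted p = 0.0595, and 0.00402 with the block). In MCF10A the receptor differed by less than its spread, at 3670 to 5565 against 4188 to 5431 (0.07, SE 0.19, adjusted p = 0.887). The effect on TGFBR2 was larger in MCF10AT1 than in MCF10A by 1.32 (SE 0.40, adjusted p = 0.0267). TGFBR1 overlapped between the arms in MCF10A (604 to 1259 against 764 to 1319, adjusted p = 0.979) and in MCF10AT1 (193 to 571 against 192 to 237, adjusted p = 0.536). TGFBR3, or betaglycan, a co-receptor that presents the ligands, was at 78.7 to 248 against 281 to 343 in MCF10A, groups that did not overlap (1.02, SE 0.39, adjusted p = 0.216). It lay at 47.0 to 230 against 186 to 255 in MCF10AT1 (1.18, adjusted p = 0.228) and at 46.4 to 94.7 against 33.2 to 108 in MCF10CA1h (-0.37, adjusted p = 0.630).

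SMAD3, the transcription factor that the TGF-β and activin receptors phosphorylate, rose in MCF10AT1. Its normalized counts were 575, 740 and 1052 in the control and 2135, 1915 and 2498 in the labelled knockdown. All labelled knockdown libraries were higher, with means of 789 ± 242 and 2183 ± 294 (log2 fold change 1.50, SE 0.30, adjusted p = 0.0136). In MCF10A the order was reversed, with 1220, 1778 and 1929 in the control and 916, 1112 and 1028 in the labelled knockdown. These groups did not overlap and passed only with the replicate block (-0.67, SE 0.20, adjusted p = 0.128, and 0.0399 with the block). The effects in MCF10AT1 and MCF10A differed by 2.17 (SE 0.30, adjusted p = 6.25e-05). In MCF10CA1h the labelled knockdown libraries were close together, at 1997 to 2000 against 1499 to 1789 in the control, and did not pass the test (0.26, SE 0.10, adjusted p = 0.120), and the effect was below that in MCF10AT1 by a difference of -1.24 (SE 0.30, adjusted p = 0.00801).

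The calls of TGFB1 and SMAD3 in MCF10AT1 did not rest on control library c, without which their adjusted p was 0.0235 and 0.00692. Both were lost without control a or labelled knockdown a or b, with adjusted p between 0.0709 and 0.123 for TGFB1 and between 0.0509 and 0.0751 for SMAD3, at log2 fold changes of 1.44 to 1.64 and 1.30 to 1.59. With libraries scaled to equal sums the calls of SMAD3 and INHBA in MCF10AT1 were also lost (adjusted p = 0.0553 and 0.0770).

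SMAD7, the inhibitory SMAD that blocks the type I receptor, passed the test in no line. In MCF10A it was at 226, 234 and 248 normalized counts in the control and 165, 186 and 169 in the labelled knockdown, groups that did not overlap (log2 fold change -0.44, SE 0.20, adjusted p = 0.278). In MCF10AT1 it was at 98.6, 113 and 128 in the control and 142, 185 and 469 in the labelled knockdown. There the labelled knockdown was higher in every library, library c most of all (1.03, SE 0.48, adjusted p = 0.211). In MCF10CA1h the range was 404 to 678 against 252 to 424 (-0.47, adjusted p = 0.237). The effect in MCF10AT1 was above that in MCF10A by 1.47 (SE 0.50, adjusted p = 0.0426), and that in MCF10CA1h was below that in MCF10AT1 (difference -1.50, SE 0.50, adjusted p = 0.0443). With the replicate block neither difference passed (adjusted p = 0.0552 and 0.0565).

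TGFBI, a secreted matrix protein named for its induction by TGF-β, was called in 2 lines without the replicate block (with it, INHBA, SMAD3 and TGFBR2 were as well). In MCF10A its normalized counts were 18959, 15975 and 21640 in control libraries a, b and c and 6073, 8598 and 9587 in the labelled knockdown. Every labelled knockdown library lay below every control library, and the mean went from 18858 ± 2834 (SD, n = 3) to 8086 ± 1812 (log2 fold change -1.24, SE 0.21, adjusted p = 0.0253). This call held without control replicate a (adjusted p = 0.0202) and was lost when any of the other 5 libraries was left out (0.0641 to 0.0912), and in each case the fold change stayed negative. In MCF10CA1h the control libraries held 22230, 29243 and 22378 and the labelled knockdown libraries 55992, 64624 and 63970. Here all labelled knockdown libraries were higher, with means of 24617 ± 4007 and 61528 ± 4806 (1.33, SE 0.12, adjusted p = 0.000132). In MCF10AT1 the values were 19234, 19180 and 11098 against 9209, 10099 and 8590, which did not overlap but did not pass the test (-0.79, SE 0.31, adjusted p = 0.138).

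Ordered by mean TGFBI level, the groups ran from the MCF10A and MCF10AT1 labelled knockdowns, through the MCF10AT1 and MCF10A controls, to the MCF10CA1h control and then its labelled knockdown. The libraries of the lowest 2 groups overlapped, as did those of the next 2. The MCF10CA1h labelled knockdown stood above all other libraries, its lowest value of 55992 lying over the highest of the rest, 29243. The effect in MCF10CA1h exceeded that in MCF10A by 2.57 on the log2 scale (SE 0.32, interaction adjusted p = 0.000224) and that in MCF10AT1 by 2.12 (SE 0.32, adjusted p = 0.000144). Between the control lines no TGFBI difference passed the limma test (adjusted p between 0.114 and 0.503). Control MCF10CA1h, at 22230 to 29243, still lay above every control library of MCF10A (highest 21640) and of MCF10AT1 (highest 19234).

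Interaction contrasts in 1 fit of the 18 libraries compared the effects themselves. That fit takes 1 spread per gene over all groups, although spreads differed. The SD of SMAD7 was 178 in the MCF10AT1 labelled knockdown and 10.9 in the MCF10A control. The adjusted p of a contrast with MCF10AT1 therefore does not rest on the spread of that line alone. The effect differed between MCF10AT1 and MCF10A for 4 of the 10 genes (TGFB1, TGFBR2, SMAD3 and SMAD7, all more positive in MCF10AT1), against 21.6% of 15897 genes. It differed between MCF10CA1h and MCF10A for 1 gene, TGFBI, against 5.34% of genes. Between MCF10CA1h and MCF10AT1 it differed for 5 genes, against 18.2%, with INHBA and TGFBI more positive in MCF10CA1h and TGFB1, SMAD3 and SMAD7 more positive in MCF10AT1. With the replicate block SMAD7 was lost from both contrasts that called it, leaving 3 genes and 4 genes. The share of all genes called in these contrasts with the block is not given. In the blocked fit each letter had 1 effect shared by the 3 lines, although the letters did not pair libraries in MCF10CA1h. The blocked interactions are therefore not a pairing within each line. The interactions of TGFBR2 and SMAD7 between MCF10AT1 and MCF10A were lost with libraries scaled to equal sums (adjusted p = 0.141 and 0.121).

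The control arms compared the 3 lines without the METTL3 guide. They share their libraries with the comparisons above, and each line is again 1 clone. Against control MCF10A, 0 of the 10 genes were higher and 4 lower in control MCF10AT1 (background 13.3% and 14.7%). These were INHBA (log2 fold change -4.25, SE 0.78, adjusted p = 0.00638), TGFBR1 (-1.71, SE 0.42, adjusted p = 0.0173), SMAD3 (-1.07, SE 0.26, adjusted p = 0.0178) and SMAD7 (-1.06, SE 0.26, adjusted p = 0.0174). Without MCF10A control b or c, or MCF10AT1 control a, only INHBA was still called. Against control MCF10A, 1 gene was higher and 1 lower in control MCF10CA1h (background 19.0% and 18.8%), SMAD7 at 1.04 (SE 0.26, adjusted p = 0.0116) and INHBA at -2.79 (SE 0.78, adjusted p = 0.0201). INHBA was not called there without MCF10A control b or c or MCF10CA1h control c (the highest adjusted p was 0.0804), nor SMAD7 without MCF10CA1h control a (0.0571). Against control MCF10AT1, 2 genes were higher and 0 lower in control MCF10CA1h (background 11.0% and 10.8%), SMAD7 at 2.10 (SE 0.26, adjusted p = 0.000712) and SMAD3 at 1.12 (SE 0.26, adjusted p = 0.0154), and SMAD3 was lost without MCF10AT1 control a or MCF10CA1h control a or b. SMAD7 was thus lowest in MCF10AT1 (98.6 to 128), then MCF10A (226 to 248), then MCF10CA1h (404 to 678), and no 2 control groups overlapped.

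The other genes of the pathway were taken from 7 lists of 77 genes, chosen by function, of which 76 were in the table. In MCF10A 66 could be tested, of which 1 rose and 3 fell (background 1.16% and 1.49%), and with the replicate block 4 rose and 13 fell (2.84% and 4.76%). In MCF10AT1 12 rose and 7 fell of 66 (background 7.07% and 5.96%), and with the block 16 rose and 13 fell (13.0% and 11.6%). In MCF10CA1h 10 rose and 5 fell of 67 (background 7.91% and 4.85%). Their median log2 fold changes were -0.12, -0.03 and 0.04. Leaving the direction aside, the median size of change was 0.56, 0.96 and 0.36, against 0.28, 0.62 and 0.24 over all genes tested.

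Known TGF-β target genes were called in MCF10AT1 (6 rose and 1 fell of 19 tested, background 7.07% and 5.96%) and in MCF10CA1h (7 rose and 1 fell of 20, background 7.91% and 4.85%). In MCF10A 0 of 19 were called, and 2 rose and 5 fell with the replicate block (background 2.84% and 4.76%). The median log2 fold change of the list lay below 0 in MCF10A (-0.65) and MCF10AT1 (-0.09), and above it in MCF10CA1h (0.48). In MCF10AT1 the target that fell was SNAI2, a transcription factor (-2.44, adjusted p = 0.0249), named after its value was seen, and the largest changes were rises of matrix genes of the mesenchymal kind. FN1, the matrix protein fibronectin, went from 70.5, 65.1 and 81.9 normalized counts to 55947, 65869 and 134507 (log2 fold change 10.08, SE 0.36, adjusted p = 1.87e-05), SPARC, a matrix glycoprotein, rose by 7.45 and TGM2, a cross-linking transglutaminase, by 6.64. These moved together with the marker shift of that line, and the part of the shift in them was not tested. In MCF10CA1h FN1 went from 2594, 3453 and 3219 to 9157, 14083 and 12135 (1.92, SE 0.16, adjusted p = 7.99e-05). TGM2 rose there by 2.04 and TAGLN, an actin-binding protein, by 2.65, while the 1 target that fell was CCN2, a secreted growth factor partner, at -0.97 (adjusted p = 0.0113), named after its value was seen.

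**Figure D4:**
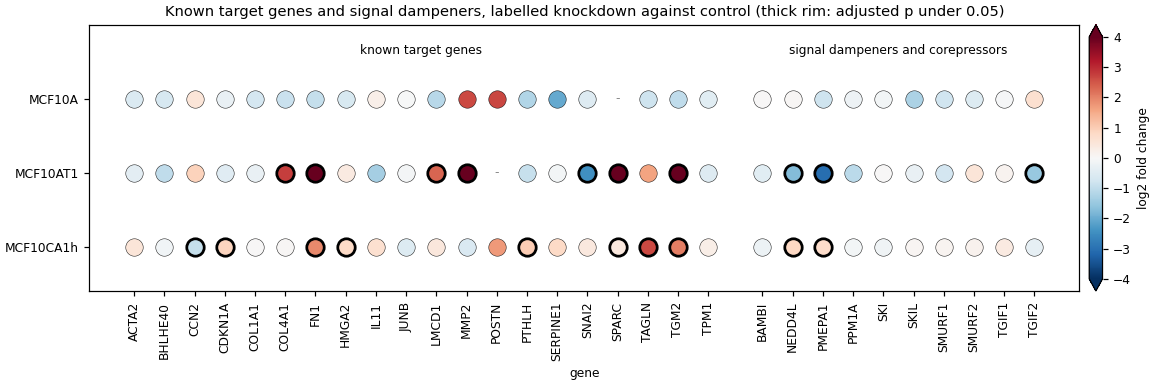
Log2 fold change (colour, clipped at 4 in either direction) of known TGF-β target genes and of signal dampeners and corepressors, labelled knockdown against control, by gene and line, with a thick rim where the adjusted p was under 0.05 and a dash where the gene was not tested. MCF10A has no thick rim, MCF10AT1 has 7 among the targets and 3 among the dampeners, and MCF10CA1h has 8 and 2.

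Of 10 dampeners of the signal, which lower receptor or SMAD activity, 3 fell and 0 rose in MCF10AT1 (list median log2 fold change -0.59). In MCF10CA1h 2 rose and 0 fell (median 0.10), and 0 were called in MCF10A, where PMEPA1 passed as lower with the replicate block (adjusted p = 0.0210). The background was 7.07% higher and 5.96% lower in MCF10AT1, and 7.91% and 4.85% in MCF10CA1h. PMEPA1, a membrane protein that is induced by TGF-β and sequesters SMAD2 and SMAD3, was at 2411, 3375 and 3320 normalized counts in the MCF10AT1 control and 139, 455 and 772 in its labelled knockdown. All labelled knockdown libraries were lower (log2 fold change -3.03, SE 0.57, adjusted p = 0.00992), whereas in MCF10CA1h PMEPA1 went from 4867, 5293 and 4306 to 7434, 8994 and 7696 (0.74, SE 0.11, adjusted p = 0.00216). The 2 effects differed by 3.77 (SE 0.61, adjusted p = 0.000299). NEDD4L, a ubiquitin ligase for activated SMADs, showed the same pair of signs (-1.74, adjusted p = 0.0126, and 0.83, adjusted p = 0.000482), and TGIF2, a corepressor, fell in MCF10AT1 (-1.51, adjusted p = 0.0113). SMAD6, the inhibitory SMAD of the BMP arm, rose in MCF10AT1 (2.73, adjusted p = 0.0201) and fell in MCF10CA1h (-1.79, adjusted p = 0.00341). It was the gene called among the 6 other SMADs in each of these lines, a single call against the background just given.

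Genes that hold or release latent TGF-β were called in MCF10AT1 (1 rose and 2 fell of 9 tested, and 3 and 2 with the replicate block) and not in MCF10A or MCF10CA1h (0 of 9 in each, and in MCF10A 1 lower with the block, THBS1, adjusted p = 0.00378). Over all genes tested, 1.16% were called higher and 1.49% lower in MCF10A, 7.07% and 5.96% in MCF10AT1, and 7.91% and 4.85% in MCF10CA1h. With the block these shares were 2.84% and 4.76% in MCF10A and 13.0% and 11.6% in MCF10AT1. A single call in a list of 5 or 6 genes therefore does not set the list apart. No list was tested against these shares or between the lines. ITGB6, a subunit of an integrin that activates latent TGF-β, went from 1426, 1072 and 2122 normalized counts to 23.3, 20.9 and 22.8 (log2 fold change -5.99, SE 0.37, adjusted p = 4.80e-05). ITGB8, of a second activating integrin, fell (-2.40, adjusted p = 0.0355), and LTBP3, a latent TGF-β binding protein, rose (1.27, adjusted p = 0.0249). Among other receptors ENG, the co-receptor endoglin, rose in MCF10AT1, where its control lay at 1267 to 1794 and its labelled knockdown at 4581 to 6105 (1.78, adjusted p = 0.00360), 1 of 5 tested there, and 0 of 6 were called in MCF10A and 0 of 5 in MCF10CA1h. Of the activin-type ligands and antagonists 0 of 6 were called in MCF10A (2 lower with the replicate block, FST at 0.0181 and FSTL3 at 0.00949), 1 rose in MCF10AT1, and 1 rose and 1 fell in MCF10CA1h, where FSTL3, which binds and blocks activin, rose by 0.97 (SE 0.12, adjusted p = 0.000940).

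The BMP arm held the called genes of MCF10A (1 rose and 3 fell of 10, background 1.16% and 1.49%). ID1, a direct BMP target that inhibits differentiation factors, went from 4180, 5349 and 5139 normalized counts to 1959, 1911 and 1517 (log2 fold change -1.45, SE 0.17, adjusted p = 0.00803). The ligands BMP2 (-1.54, adjusted p = 0.0130) and BMP6 (-3.40, SE 0.71, adjusted p = 0.0494) fell, BMP6 from a control that spread from 161 to 1524, and the gene that rose was the ligand BMP4 (1.56, adjusted p = 0.0412), named after its value was seen. In MCF10AT1 2 rose and 1 fell of 11 (background 7.07% and 5.96%). ID1 rose (1.35, adjusted p = 0.0385), and the ligand BMP7 went from 0, 0 and 2.84 to 262, 287 and 212 normalized counts (adjusted p = 0.000346). NOG, the antagonist noggin, fell from 140 to 262 down to 3.40 to 14.7 (adjusted p = 0.00304). In MCF10CA1h 0 rose and 2 fell of 11 (background 7.91% and 4.85%), ID2 (-1.22, adjusted p = 0.0265) and BMP7 (-1.04, adjusted p = 0.0184).

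Across the 18 libraries, the genes whose log2 levels followed those of the 10 most closely were found by Pearson r among 12460 genes with a mean of at least 50. The libraries fall into 6 groups of 3 and share depth and normalization, so r describes mainly how group levels go together. For TGFB1 these were PLOD1 (r = 0.972) and FHL3 (0.963), for INHBA CYP1B1-AS1 (0.982) and RRAS2 (0.979), and for TGFB2 and TGFB3 FZD1 (0.858) with PTCD2 (0.854) and ENSG00000282416 (0.768) with NDST2 (0.766). Among receptors TGFBR1 was followed by CARNMT1 (0.981) and FGD5-AS1 (0.975), TGFBR2 by SQSTM1 (0.896) and FRMD8 (0.880), and TGFBR3 by PTPN14 (0.938) and SLC12A2 (0.897). SMAD3 was followed by TMEM156 (0.955) and COL4A1 (0.947), SMAD7 by HYOU1 (0.896) and SPRYD3 (0.880), and TGFBI by TUBB2A (0.934) and USP18 (0.916).

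On GRCh38 (GENCODE annotation) TGFB1 is at chr19:41301587-41353922 on the minus strand, INHBA at chr7:41667168-41705834 (minus), TGFBR1 at chr9:99104038-99154192 (plus), TGFBR2 at chr3:30606601-30694142 (plus), SMAD3 at chr15:67063763-67195173 (plus), SMAD7 at chr18:48919853-48950965 (minus) and TGFBI at chr5:136028988-136063818 (plus). As METTL3 writes m6A most often within the letters GGACT, these were counted on the sense strand of each canonical transcript. The 10 transcripts held between 1 match (TGFB2) and 5 matches (TGFBR2 and SMAD3), or 0.170 to 1.44 per kilobase, against a median of 0.939 (quartiles 0.551 and 1.41) over 17677 coding transcripts. TGFBI held 3, all in its coding sequence, INHBA 2, both in the 3′ untranslated region, and SMAD3 4 of its 5 there. The letters alone do not show that a base is methylated, and m6A was not measured in these files.

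Promoter sequence was read for all 10 genes (RefSeq, GRCh38.p14, 250 bases before the start to 50 after it) and searched on both strands for letters known from SMAD binding, GTCTAGAC and the shorter CAGAC, and for TGACTCA, an AP-1 site. GTCTAGAC occurred in 0 of the 10 and in 0.202% of 35116 promoters, and TGACTCA in 0 of the 10 and in 4.95%. CAGAC, which is short and common, occurred in 6 of the 10 (TGFB2, TGFB3, INHBA, TGFBR1, SMAD3 and SMAD7) and in 45.3% of all promoters. The windows below are of TGFBI (chr5:136028738-136029037, plus strand), which changed in opposite directions in 2 lines, INHBA (chr7:41703041-41703340, minus strand), which had the largest change of the 10, and SMAD7 (chr18:48950916-48951215, minus strand), which separated the 3 control lines. The start is that of RefSeq, and for some of the 10 genes, INHBA among them, it lies inside the gene as placed by GENCODE above. Capitals mark CAGAC, which begins 28 bases after the start in INHBA and 217 and 128 bases before it in SMAD7, and TGFBI has no match in this window.
TGFBI: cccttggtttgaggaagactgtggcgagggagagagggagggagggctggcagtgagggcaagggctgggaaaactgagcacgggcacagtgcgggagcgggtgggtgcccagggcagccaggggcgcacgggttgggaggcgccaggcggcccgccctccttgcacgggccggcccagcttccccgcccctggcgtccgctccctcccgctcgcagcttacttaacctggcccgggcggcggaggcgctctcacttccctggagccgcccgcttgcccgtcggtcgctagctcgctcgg
INHBA: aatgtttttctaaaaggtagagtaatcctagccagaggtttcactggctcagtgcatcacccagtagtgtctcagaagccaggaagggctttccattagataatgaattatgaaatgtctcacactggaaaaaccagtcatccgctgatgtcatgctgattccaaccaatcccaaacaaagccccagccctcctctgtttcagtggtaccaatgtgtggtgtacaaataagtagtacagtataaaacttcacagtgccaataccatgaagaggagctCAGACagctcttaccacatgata
SMAD7: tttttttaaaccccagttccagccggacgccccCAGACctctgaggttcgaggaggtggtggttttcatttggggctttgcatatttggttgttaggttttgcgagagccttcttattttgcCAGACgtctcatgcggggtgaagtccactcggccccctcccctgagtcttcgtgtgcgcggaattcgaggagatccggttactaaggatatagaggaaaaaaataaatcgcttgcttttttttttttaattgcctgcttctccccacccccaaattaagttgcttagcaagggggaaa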

How the data were processed

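RNA was sequenced from 18 libraries, 3 in each of 6 groups, grouped by the labels. The authors depleted ribosomal RNA by their methods (while polyA RNA stands in the labels, and which of them holds was not settled), pseudo-aligned the reads with kallisto 0.46.1 to the human transcriptome, summed them to genes and normalized them with DESeq2 1.26.0. The deposited normalized counts are a signal in scaled reads, not a count and not per length, so levels are not compared between genes. Only 29.3% to 49.9% of low values lay at whole multiples (tolerance 0.05) of the most frequent low value (0.81 to 1.77), so reads were not recovered, no count test was run, and the depth per gene is unknown.

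Of 60579 genes, 24646 without values were left out. A symbol was found for 35894, and CDKN2B was not analysed here. The values plus a pseudocount of 1 were put on the log2 scale and fitted with limma 3.58.1 in R 4.3.3 (eBayes with intensity trend, two-sided, Benjamini-Hochberg over all genes tested, threshold 0.05) with genes kept from a mean of 10 upwards. Each line was fitted alone, the 9 control libraries together, and interactions in 1 fit of 18. Fold changes on this scale understate the change of low genes. The fit was tested on simulated independent libraries with the same dispersion for every gene. Spread differed between genes and groups here, so that test does not check the calls in these data. Tables and figures used Python 3.11.15, pandas 2.3.3, NumPy 2.4.6 and matplotlib.

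Over 15897 genes, deviations of same-letter libraries from their group means correlated at 0.221, 0.200 and 0.116 (a, b, c) in MCF10A and 0.110, 0.289 and 0.477 in MCF10AT1, all over 0.1, and at -0.0112, 0.0173 and 0.0460 in MCF10CA1h, so the letter was taken as a pairing in the first 2 lines. This pairing comes from the data, not from the labels.

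The 10 genes, pathway lists, markers and naming rule were chosen with earlier results of these data known. Named besides the 10 genes were METTL3, marker genes that lead their list or lie near 0, up to 3 called genes of each pathway list and line by size of fold change (mean of at least 50, groups apart), and the 2 genes with the highest r to each of the 10. Alternatives were other pseudocounts, filters, scalings, thresholds, a joint fit, no trend, the replicate block and leaving out each library.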

Additional observations from a re-analysis of the deposited data

Results flagged for a closer look

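Over 3 contrasts of each of the 10 genes, the labelled knockdown effect differed between lines 10 times by an interaction test in limma. Of all genes tested, 21.6% differed between MCF10AT1 and MCF10A, 5.34% between MCF10CA1h and MCF10A and 18.2% between MCF10CA1h and MCF10AT1. The 10 genes were not tested against these shares. The values below are differences of log2 fold changes, and each arm is 1 clone, so a line and a clone cannot be told apart. Each test used 1 spread per gene shared by all groups. The effect in MCF10AT1 was more positive than that in MCF10A for TGFB1 (2.22, adjusted p = 0.000401), SMAD3 (2.17, adjusted p = 6.25e-05), SMAD7 (1.47, adjusted p = 0.0426) and TGFBR2 (1.32, adjusted p = 0.0267). The effect in MCF10CA1h was more positive than that in MCF10A for TGFBI (2.57, adjusted p = 0.000224). Set against MCF10AT1, the effect in MCF10CA1h was more positive for INHBA (3.87, adjusted p = 0.0145) and TGFBI (2.12, adjusted p = 0.000144), and more negative for TGFB1 (-1.81, adjusted p = 0.00257), SMAD7 (-1.50, adjusted p = 0.0443) and SMAD3 (-1.24, adjusted p = 0.00801). With a replicate block shared by the 3 lines both SMAD7 differences missed the threshold (adjusted p = 0.0552 and 0.0565). The 3 contrasts share libraries with each other.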

How the results depend on the processing

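Of the 10 genes, the number called in MCF10A (1 as reported) was 0 without the intensity trend and at an adjusted p under 0.01, 3 with the replicate block (INHBA, SMAD3 and TGFBI), and 0 to 3 when each library was left out (INHBA and SMAD3 were also called without control a). In MCF10AT1 (3 as reported) it was 1 without the trend, 5 with the replicate block, 7 in the joint fit of 18 libraries, 0 at an adjusted p under 0.01 and 0 to 4 with a library left out (TGFBR3 and TGFBI were also called without control c). In MCF10CA1h (3 as reported) it was 1 in the joint fit and 3 whichever library was left out. The letters did not pair libraries there, and with the replicate block INHBA passed (adjusted p = 0.0104). An adjusted p under 0.01 left 1 gene between control MCF10AT1 and MCF10A (4 as reported), 0 between MCF10CA1h and MCF10A (2) and 1 between MCF10CA1h and MCF10AT1 (2), with 1 to 5, 1 to 4 and 1 to 6 when a library was left out. It left 2 interactions of 4 between MCF10AT1 and MCF10A, as did equal sums, and 3 of 5 between MCF10CA1h and MCF10AT1, and leaving out a library gave 2 to 4, 1 to 2 (MCF10CA1h and MCF10A) and 4 to 6. The block ended the SMAD7 call in both interactions that held it, and changed no other call of the 10 genes than those given here and above. Apart from fewer libraries, the cause of these changes was not tested. Among the alternatives, the share of all genes called is given above only for the replicate block in MCF10A and MCF10AT1. The other counts therefore do not set the 10 genes apart from a general change in calls.

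Directions turned 27 times among 1768 values of single genes under the alternatives, each for a gene not called. With a library left out, log2 fold changes of the labelled knockdown ran in MCF10A from -0.22 to 0.29 for TGFB3, -0.32 to 0.22 for TGFBR1 and -0.079 to 0.22 for TGFBR2, and in MCF10CA1h from -0.21 to 0.0945 for TGFB2 and -0.72 to 0.0216 for TGFB3. Control MCF10AT1 against MCF10A ran from -0.21 to 0.79 for TGFB2, -0.15 to 0.76 for TGFB3 and -0.36 to 0.0375 for TGFBI. Control MCF10CA1h against MCF10A ran from -0.26 to 0.20 for TGFB3, -0.0444 to 0.26 for TGFBR2 and -0.15 to 0.18 for SMAD3, and against MCF10AT1 from -0.82 to 0.0894 for TGFB3 and -0.95 to 0.19 for TGFBR3. The interaction of MCF10AT1 and MCF10A ran from -0.33 to 0.80 for TGFBR3 (-0.0923 with equal sums), and that of MCF10CA1h and MCF10A from -0.17 to 0.21 for SMAD7. Equal sums moved the median of all genes in MCF10AT1 from 0.02 to -0.15. The depth behind each value is unknown, so genes of low counts (TGFB2, TGFB3, TGFBR3, SMAD7) carry a counting error that could not be given.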
